A study of Mus musculus with 3 samples.

Results

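The 33 genes described here are interferon-stimulated genes, taken by symbol from a fixed list out of the 51912 genes counted in lymph node stroma. They were sorted by their known roles into 19 antiviral genes (Isg15, Ifit1, Ifit2, Ifit3, Ifit3b, Rsad2, Oasl2, Oas1a, Mx1, Mx2, Ifi35, Ifih1, Bst2, Xaf1, Usp18, Rtp4, Ifi27l2a, Parp14 and Zbp1), 10 genes of interferon-inducible GTPases (Gbp2, Gbp3, Gbp5, Gbp6, Gbp7, Iigp1, Igtp, Irgm1, Irgm2 and Ifi47) and 4 regulators (Irf1, Irf7, Irf9 and Stat2). All 33 had at least 1 UMI in every library.

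Interferons are secreted proteins that warn cells of infection. Type I interferons signal through a complex that holds STAT2 and IRF9 and binds the interferon-stimulated response element (ISRE) in front of antiviral genes, and IRF7 amplifies their production. Interferon gamma, made by T and NK cells, acts through the gamma-activated sequence (GAS) and through IRF1, and it is a strong inducer of the guanylate-binding proteins (GBPs) and the immunity-related GTPases (IRGs), which attack the membranes around intracellular pathogens. Many of these genes answer to both kinds of interferon. Lymph node stromal cells build the follicles and T cell zones and are known to respond to interferons during immunization.

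The cells came from lymph nodes of C57BL/6 mice carrying a Cxcl13-Cre transgene with TdTomato, and were sorted as live, Podoplanin+, CD31-, CD45- and CXCL13-TdTomato+, so that only stroma in which the Cxcl13 transgene had driven TdTomato was sampled. All mice had received antigen immune complexes (antigen-IC), with an injected antibody against the antigen followed by the antigen in alum. The 2-IC group (2 libraries) had an antigen-IC 7 days and another 24 h before analysis, and the 1-IC group (1 library) had a single one 24 h before analysis. None of the 3 libraries came from unimmunized mice. The short names of the 2 libraries of 2-IC give different times (24 h and 7 days) under titles that are otherwise alike, so they may not be plain replicates. Both of these short names begin with Biotin, while that of the 1-IC library holds ICPE. The groups may therefore differ in antigen or preparation as well as in the number of antigen-ICs. Nodes of several mice were pooled, so the libraries and not mice are the replicates, and although the study speaks of 3 experiments, each with several mice, it does not tie them to libraries.

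The tables held 5486 barcodes, of which 2243 passed the filters on genes, mitochondrial reads and contaminant genes (1526 and 391 in 2-IC replicates 1 and 2 and 326 in 1-IC). These retained cells had medians of 4700.5, 14732 and 5979 UMIs. The 2 libraries of 2-IC shared 76 barcodes, of which 40 and 20 were retained, and 2 barcodes were shared by 2-IC replicate 1 and 1-IC. A list of 6 stromal genes was detected in full in each library with summed levels of 10637 to 22078 counts per 1000000 UMIs of the same cells (CPM), while 6 T cell markers summed to at most 8.51 and 4 endothelial markers to at most 6.59 CPM. The B cell list of 6 genes summed to between 593 and 1424 CPM, and the myeloid list of 8 genes to between 40.2 and 229. Levels are not scaled by gene length, and values for the libraries are given in the order 2-IC replicate 1, 2-IC replicate 2 and 1-IC.

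Promoter windows from RefSeq (GRCm38.p6) were matched for 24 of the 33 genes, and stretches of 200 bases before the annotated start are shown for 7 of them. Isg15, Ifit1, Ifit3 and Ifit3b are shown for their differences between libraries, Igtp and Irgm2 for their correlation within cells, and Irf1 for its difference between gates. Capitals mark matches to the ISRE core GAAANNGAAA, searched on both strands, or to the GAS TTCNNNGAA, which reads alike on both strands.
Isg15 (chr4:156200819-156201018, minus strand): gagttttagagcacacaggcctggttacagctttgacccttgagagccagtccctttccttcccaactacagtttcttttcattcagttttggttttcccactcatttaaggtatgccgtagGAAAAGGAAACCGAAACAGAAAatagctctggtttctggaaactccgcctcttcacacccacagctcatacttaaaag
Ifit1 (chr19:34640689-34640888, plus strand): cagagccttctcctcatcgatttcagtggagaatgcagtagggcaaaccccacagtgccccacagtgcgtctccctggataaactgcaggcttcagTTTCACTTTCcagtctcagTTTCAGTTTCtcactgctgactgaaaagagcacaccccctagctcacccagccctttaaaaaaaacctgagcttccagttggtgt
Ifit3 (chr19:34583329-34583528, plus strand): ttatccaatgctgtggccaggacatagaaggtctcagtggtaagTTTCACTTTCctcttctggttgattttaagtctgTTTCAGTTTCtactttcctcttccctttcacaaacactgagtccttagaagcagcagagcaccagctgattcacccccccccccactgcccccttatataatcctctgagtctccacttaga
Ifit3b (chr19:34607757-34607956, plus strand): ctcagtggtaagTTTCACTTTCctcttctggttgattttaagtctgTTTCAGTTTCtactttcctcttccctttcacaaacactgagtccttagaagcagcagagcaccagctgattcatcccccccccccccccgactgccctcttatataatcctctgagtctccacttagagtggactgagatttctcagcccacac
Igtp (chr11:58199356-58199555, plus strand): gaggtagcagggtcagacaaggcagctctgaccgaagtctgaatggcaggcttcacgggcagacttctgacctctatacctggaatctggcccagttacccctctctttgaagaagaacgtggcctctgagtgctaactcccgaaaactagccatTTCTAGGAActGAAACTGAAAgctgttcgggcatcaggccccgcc
Irgm2 (chr11:58214777-58214976, plus strand): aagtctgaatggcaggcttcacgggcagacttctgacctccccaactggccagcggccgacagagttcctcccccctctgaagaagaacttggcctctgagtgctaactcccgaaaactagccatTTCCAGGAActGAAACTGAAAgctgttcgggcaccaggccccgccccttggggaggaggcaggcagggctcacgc
Irf1 (chr11:53769814-53770013, plus strand): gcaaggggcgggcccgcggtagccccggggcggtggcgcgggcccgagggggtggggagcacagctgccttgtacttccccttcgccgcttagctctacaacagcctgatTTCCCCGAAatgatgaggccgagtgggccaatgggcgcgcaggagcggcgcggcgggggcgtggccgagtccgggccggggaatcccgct

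The Isg15 capitals hold 3 overlapping ISRE cores in 22 bases. Ifit1, Ifit3 and Ifit3b each carry the same pair of cores, TTTCACTTTC and TTTCAGTTTC, read on the opposite strand. Igtp and Irgm2 share the core GAAACTGAAA placed behind a GAS, TTCTAGGAA in Igtp and TTCCAGGAA in Irgm2, with no overlap between them. The Irf1 window has a GAS (TTCCCCGAA) and no ISRE core. Over whole windows of 300 bases an ISRE core was found in 16 of the 24 matched genes (66.7%), against 3.99% of 27025 genes with a window. It was found in 8 of 12 antiviral genes, 7 of 8 GTPase genes and 1 of 4 regulators. A GAS was found in 9 of 24 (37.5%), against 9.55% of all. These matches describe letters and not bound sites.

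The antiviral genes were led by Ifi27l2a, a gene for a small interferon-induced membrane protein (ENSMUSG00000079017, chr12:103442167-103443680). Its levels were 310.3, 47.1 and 433 CPM. It was low in 2-IC replicate 2 alone, and the 2-IC libraries lay further from each other than 2-IC replicate 1 lay from 1-IC. The myeloid list moved in the same order, at 179, 40.2 and 229 CPM, and its part in these levels was not tested. Bst2 (ENSMUSG00000046718, chr8:71534255-71537456), the tetherin that holds budding virus particles at the cell surface, was at 219, 115 and 363 CPM, again lowest in 2-IC replicate 2 and highest in 1-IC. Usp18 (ENSMUSG00000030107, chr6:121245906-121270917), the protease that removes ISG15 from proteins and restrains the type I receptor, was at 127, 88.2 and 131 CPM, nearly equal in 2-IC replicate 1 and 1-IC and lower in 2-IC replicate 2.

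Isg15 (ENSMUSG00000035692, chr4:156199424-156200818), the ubiquitin-like modifier, was at 40.5, 23.1 and 132 CPM. Both 2-IC libraries lay below 1-IC for it. Ifit3 was at 13.3, 6.35 and 41.5, Ifit1 at 12.6, 2.47 and 21.3 and Ifit3b at 2.64, 0.882 and 19.8 CPM, all members of the family of tetratricopeptide proteins that bind viral RNA. Ifit3 and Ifit3b are near-identical copies whose reads can be split by the counting, so each is uncertain on its own. The other 12 antiviral genes ranged in their mean over libraries from 2.69 (Rsad2, or viperin) to 39.7 CPM (Ifi35).

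Among the GTPases the IRG gene Iigp1 led, with 121, 208 and 205 CPM. Unlike the leading antiviral genes it was as high in 2-IC replicate 2 as in 1-IC. Ifi47, another IRG gene, was at 95.6, 68.3 and 134 CPM and Gbp7 at 50.4, 67.4 and 64.3 CPM. Gbp2 was at 31.8, 47.8 and 42.0 and Gbp5 at 19.9, 39.3 and 29.2 CPM, both highest in 2-IC replicate 2. Irgm1, Igtp and Irgm2 lay between 18.8 and 33.6 CPM in all 3 libraries, Gbp3 between 13.4 and 22.7, and Gbp6 between 4.20 and 9.89. The annotated span of Irgm2 covers nearly all of that of Igtp on the same strand, and reads of the 2 genes may be confused.

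Of the regulators, Irf1 (ENSMUSG00000018899, chr11:53770014-53778374) was at 62.9, 58.0 and 73.7 CPM and differed least between the libraries. Irf9, the DNA-binding partner of STAT2, was at 20.5, 25.8 and 41.5 CPM, highest in 1-IC. Irf7 (ENSMUSG00000025498, chr7:141262706-141266481) was at 13.1, 5.47 and 58.8 CPM, with 1-IC far above both 2-IC libraries, which also differed from each other. Stat2 was at 14.7, 24.5 and 18.8 CPM and highest in 2-IC replicate 2.

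**Figure D1:**
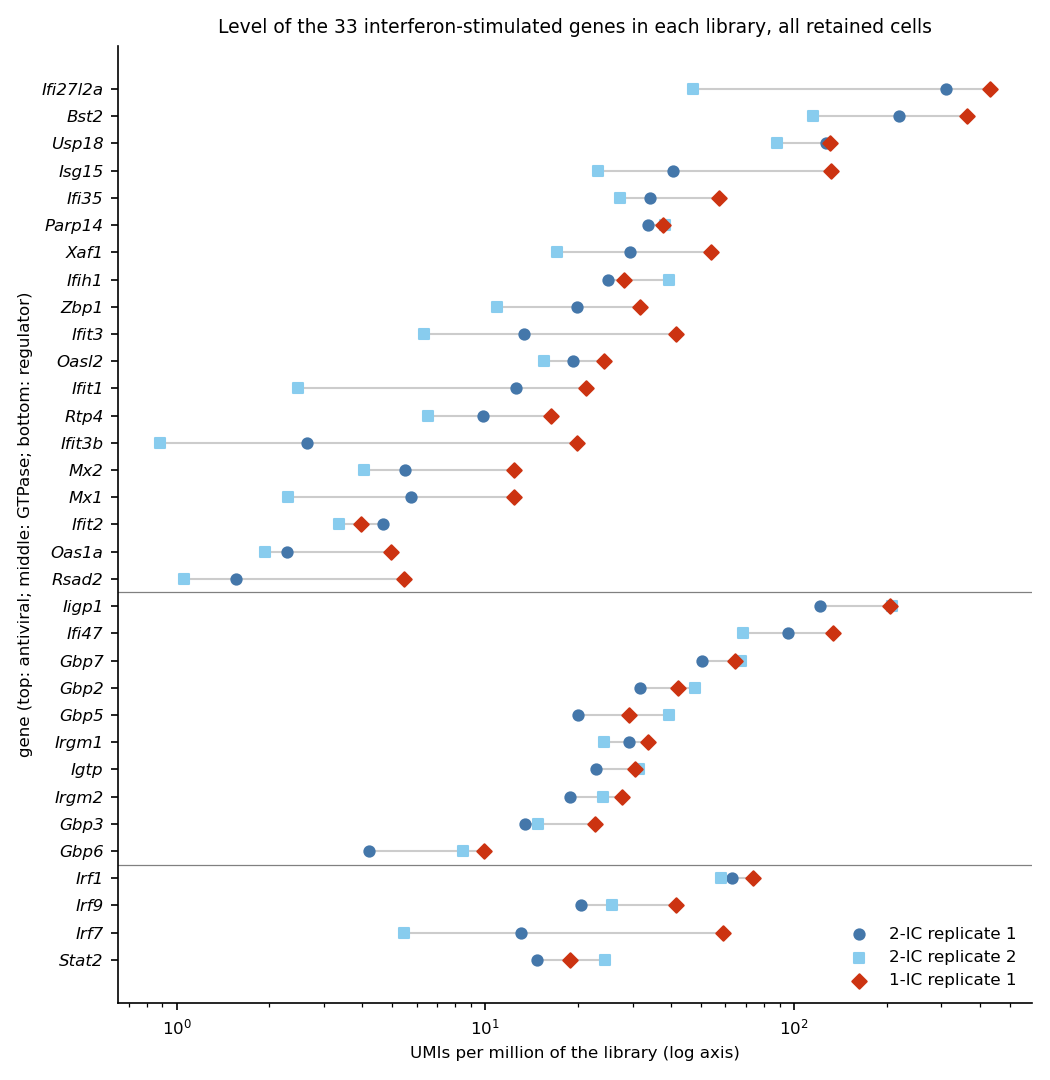
Level of each of the 33 genes (CPM, log axis) in the 3 libraries, grouped by role and ordered by mean level, with a grey line from the lowest to the highest library. The 1-IC library is at the right end for most antiviral genes, while 2-IC replicate 2 is at the left end for Ifi27l2a (47.1) and at or near the right end for Iigp1 (208).

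To ask whether the genes differed between a single and a repeated immunization, 1-IC was set against 2-IC over all retained cells. The short names differ in kind between these groups, so the number of immunizations cannot be told apart from what those names stand for. Summed over the 33 genes the levels were 1435, 1099 and 2222 CPM, and 1-IC was 1.55 times 2-IC replicate 1 and 2.02 times 2-IC replicate 2 (95% counting intervals 1.50 to 1.60 and 1.95 to 2.10, which cover counting error only). The antiviral genes summed to 916, 451 and 1430.1 CPM, the GTPases to 408, 534 and 599 CPM and the regulators to 111, 114 and 193 CPM. The 2-IC libraries lay further from each other than 2-IC replicate 1 lay from 1-IC for the antiviral sum on a ratio scale, and 1-IC was the highest in each of the 3 sums.

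In edgeR, with its quasi-likelihood test and p-values adjusted by Benjamini and Hochberg, 4 of the 33 genes were higher in 1-IC and 0 were lower, against 0.338% of the 13613 genes tested in either direction. The fit had 1 residual degree of freedom and assumes that the lone 1-IC library would vary like the 2-IC libraries. Its p-values rest mostly on a spread shared over all genes tested and little on the spread of each gene between libraries. Irf7 rose by a log2 fold change of 2.71 (SE 0.43, adjusted p = 9.63e-07), Ifit3b by 3.48 (SE 0.55, adjusted p = 9.63e-07), Ifit3 by 2.13 (SE 0.43, adjusted p = 0.000419) and Isg15 by 2.12 (SE 0.48, adjusted p = 0.00317). Of the 33 fold changes, 32 were above 0, with a median log2 fold change of 0.79, beside -0.04 over all genes tested. By role the medians were 1.28 for the antiviral genes, 0.41 for the GTPases and 0.65 for the regulators. No GTPase gene passed the test, which found 0 of 200 genes at or above the median level simulated with a log2 change of 1. At an unadjusted p under 0.05 in edgeR there were 15 of the 33 genes, against 808 of the 13613 tested. DESeq2 called 0 of the 33, and 0 higher and 3 lower of all 13613. It had 6 of the 33 at an unadjusted p under 0.05, against 275 of 13613.

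A single cell of the 1-IC library carried much of the Ifit signal. This cell, gated by Tnfsf11, had 322 UMIs of the 33 genes among 13589, of which 39 were of Ifit3, 26 of Ifit3b, 25 of Ifit1 and 7 of Rsad2. It gave 65.0% of the Ifit3b UMIs of its library, 58.1% of those of Ifit1 and 46.4% of those of Ifit3, but 34 of the 267 UMIs of Isg15. It held 113 UMIs of the stromal list and 0 of the myeloid list, and its barcode was in no other library. Without the cell with most UMIs of the 33 genes in each library, 2 of the 33 genes remained called by edgeR's quasi-likelihood test. They were Irf7 (log2 fold change 2.64, adjusted p = 3.93e-06) and Isg15 (1.93, adjusted p = 0.0122). Of all 13606 genes tested, 44 were then higher. The level of Ifit3 in 1-IC was then 22.4 CPM, that of Ifit3b 6.97 and that of Ifit1 8.96, which lay below the 12.6 CPM of 2-IC replicate 1. The log2 fold changes became 1.23 (adjusted p = 0.364) for Ifit3 and 1.98 (adjusted p = 0.516) for Ifit3b by the same edgeR test.

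Read by size alone, 26 of the 33 genes had a mean of at least 10 CPM. Isg15, Ifit3 and Irf7 (3 of 26) were at least 2-fold above both 2-IC libraries, against 0.624% of genes. In 18 of 26 the 1-IC level was above both 2-IC libraries, against 30.2%, and in 0 was it below both, against 40.6%. The 2-IC libraries themselves were at least 2-fold apart for Ifit1, Ifit3, Irf7 and Ifi27l2a (4 of 26), against 4.96%.

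**Figure D2:**
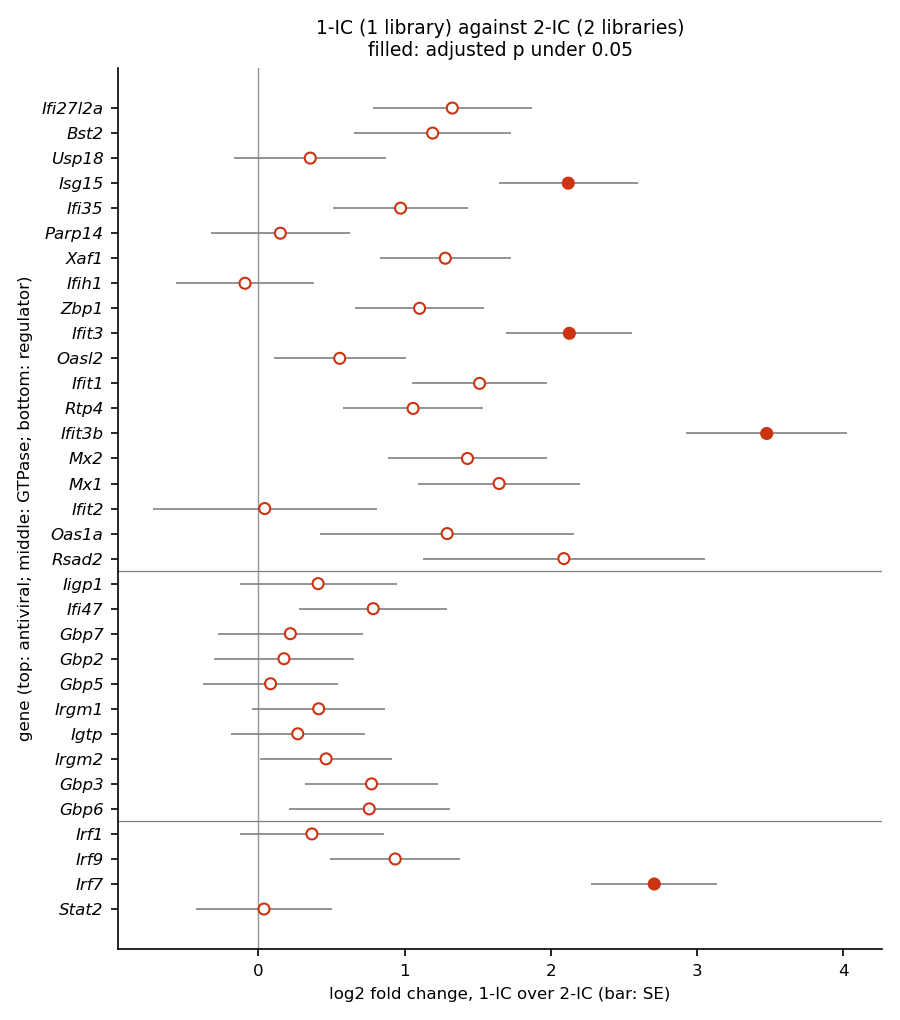
Log2 fold change of 1-IC (1 library) over 2-IC (2 libraries) for the 33 genes, with bars of 1 SE from edgeR and filled points at an adjusted p under 0.05. Filled are Isg15 (2.12), Ifit3 (2.13), Ifit3b (3.48) and Irf7 (2.71), and the GTPases in the middle block lie closer to 0 than most antiviral genes.

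The ungated cells of 1-IC held more myeloid RNA (728 CPM of the 8 myeloid markers, against 249 and 75.2 in the 2-IC libraries), and the levels were read within gates as well. Among the Tnfsf11-gated cells the myeloid list was at 57.7 CPM in 1-IC, between the 156 and 25.03 CPM of 2-IC replicates 1 and 2, where Irf7 was at 11.1, 4.32 and 39.0 and Isg15 at 32.9, 17.7 and 159 CPM. Among the Inmt-gated cells the list was at 24.7 CPM in 1-IC, against 123 and 31.7, and Irf7 was at 12.3, 7.04 and 66.0 CPM and Isg15 at 54.6, 36.9 and 94.8 CPM. The 1-IC library was the highest for both genes in both gates, and the part of the myeloid list was not tested. A single cell gave 15 of the 32 Irf7 UMIs and a single cell 14 of the 46 Isg15 UMIs of the Inmt gate in 1-IC. In the Tnfsf11 gate a single cell of 1-IC gave 34 of the 102 Isg15 UMIs. Without the leading cell Isg15 was at 108 and Irf7 at 30.3 CPM there. For the Cr2-gated cells Isg15 was at 9.10, 29.8 and 129.6 CPM and Irf7 at 14.6, 0 and 51.1 CPM, and both were at least 2-fold above the 2-IC libraries in 1-IC. A single cell gave 10 of the 13 Irf7 UMIs and a single cell 20 of the 33 Isg15 UMIs of this gate in 1-IC. The myeloid list was at 286, 44.7 and 247 CPM in this gate, and its part there was not tested. In the Madcam1-gated cells Isg15 was at 133, 11.8 and 37.1 CPM, with 1-IC between the 2-IC libraries, and a single cell gave 19 of the 42 UMIs in 2-IC replicate 1. At a mean of at least 10 CPM, 8 of 27 genes were at least 2-fold above both 2-IC libraries in the Tnfsf11 gate (0.629% of genes), 4 of 26 in the Inmt gate (0.909%), 3 of 23 in the Cr2 gate (2.07%), 9 of 26 in the Fmod gate (8.29%) and 2 of 22 in the Madcam1 gate (7.99%). Without the leading cells, the Tnfsf11 gate kept 5 of 25 (Zbp1, Isg15, Irf7, Xaf1 and Ifit3) against 0.69% of genes. The Fmod gate of 1-IC held only 10 cells and 67348 UMIs, so that 3 UMIs made 44.5 CPM.

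The gates split the stroma by raw UMIs of a single gene each. Cells with at least 2 UMIs of Cr2, the complement receptor that follicular dendritic cells (FDCs) use to hold antigen-ICs, came first (83, 27 and 39 cells). Cells without Cr2 and with Madcam1, the adhesion molecule of marginal reticular cells, came next (50, 16 and 17). Cells without Cr2 and Madcam1 and with Tnfsf11, which encodes RANKL, followed (376, 135 and 82). Of cells without these 3 genes, those with Fmod and no Inmt formed a gate (69, 21 and 10). Those with Inmt and no Fmod formed another (461, 91 and 81). Fmod encodes the matrix proteoglycan fibromodulin and Inmt a methyltransferase. The remaining cells (487, 101 and 97) were in no gate, among them those with a single UMI of Cr2 and those left with both Fmod and Inmt. The Cr2 gate held 25297 to 44267 CPM of 8 FDC markers, against 3624 to 11912 CPM in the Tnfsf11, Fmod and Inmt gates. Cr2 itself is among the 8, so this difference is partly set by the gate. The Madcam1 gate also held 21617 to 29551 CPM of these markers. Cells of the Tnfsf11 gate could also hold Fmod or Inmt, so this gate is not a separate stromal type. It held 1587, 1697 and 901 CPM of 4 markers of medullary reticular cells, Inmt among them, against 2119, 2295 and 1509 in the Inmt gate. Depth differed too, with medians of 6037.5, 16914 and 7199.5 UMIs per cell in the Tnfsf11 gate. They were 4371, 12339 and 5710 in the Inmt gate and 5716, 10091 and 4822 in the Cr2 gate. Each gate was compared with the mean of the other 4, with the library as a block since the 5 gates of a library come from the same suspension. The 5 comparisons are not independent, since a low level in a gate raises the fold changes of the others.

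Cr2-gated cells, those nearest to FDCs, had the lowest sums of the 33 genes in 2-IC replicate 1 and 1-IC, at 783, 799 and 1285 CPM over the libraries, against 1427, 1109 and 2684 in the Tnfsf11 gate and 1494, 1119 and 2375 in the Inmt gate. In 2-IC replicate 2 the Madcam1 gate was lower still (551 CPM). Of the 24 genes with enough counts for the gate fits (Gbp3, Gbp6, Ifit2, Ifit3b, Mx1, Mx2, Oas1a, Rsad2 and Rtp4 had too few), 7 were lower in the Cr2 gate and 0 higher by edgeR's quasi-likelihood test, against 12.1% of 7377 genes lower and 13.9% higher. Their median log2 fold change was -0.43, beside 0.01 over all genes tested. All 8 GTPases tested had values below 0 and 4 passed, while 3 of 12 antiviral genes and 0 of 4 regulators passed.

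Iigp1 in Cr2-gated cells was at 7.28, 62.6 and 122 CPM, against 144, 239 and 374 CPM in the Tnfsf11 gate. The contrast with the mean of the other gates was a log2 fold change of -1.55 (SE 0.40, adjusted p = 0.00420). The Cr2 gate was not the lowest in every library, since it lay above the Madcam1 gate in 2-IC replicate 2 and in 1-IC. Ifi47 stood at 54.6, 23.9 and 43.2 CPM, below each of the other gates in all 3 libraries, with a log2 fold change of -1.20 (SE 0.25, adjusted p = 0.000498). Gbp2, a guanylate-binding protein, had a log2 fold change of -1.20 in the Cr2 gate and Irgm1 one of -1.04, with adjusted p-values of 0.0251 and 0.0412 by the same edgeR test. These 2 rested on few UMIs, 9, 5 and 2 for Gbp2 and 4, 3 and 9 for Irgm1. By library the log2 difference of Irgm1 from the other gates was -1.88, -1.47 and -0.03, so that 1-IC showed hardly any. Its call was lost in 7 of 12 alternatives and that of Gbp2 in 6 of 12, among them the one without the shared barcodes.

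Of the antiviral genes, Ifi27l2a fell most clearly in Cr2-gated cells, at 98.3, 5.96 and 62.9 CPM, with a log2 fold change of -1.82 (SE 0.36, adjusted p = 0.000354). With the barcodes kept that held contaminant genes, its value in this gate turned to 0.27 (adjusted p = 0.400) by the edgeR test. The Fmod gate had 234, 134 and 1009.7 CPM and the Inmt gate 328, 39.6 and 635 CPM of it. Zbp1, the sensor of Z-form nucleic acids, was at 5.46, 2.98 and 7.86 CPM in the Cr2 gate, from 3, 1 and 2 UMIs, and its log2 fold change was -1.94 (SE 0.53, adjusted p = 0.00705). Ifit1 gave 0, 1 and 0 UMIs there, and its log2 fold change of -3.55 (SE 1.30, adjusted p = 0.0454) depends on the prior count. It was no longer tested without the leading cells. Bst2 in the Cr2 gate, at 197, 113 and 326 CPM, did not pass the edgeR test, with a log2 fold change of -0.23 (SE 0.15, adjusted p = 0.314).

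Tnfsf11-gated cells were higher for 4 of the 24 genes and lower for 0 (4.18% and 2.78% of all genes tested), with a median log2 fold change of 0.25, beside 0.03 over all genes. All 8 GTPases tested had values above 0. Iigp1 rose by a log2 fold change of 1.09 (SE 0.25, adjusted p = 0.00669) and Ifi47, at 130.5, 71.6 and 173 CPM, by 0.60 (SE 0.15, adjusted p = 0.0144). Usp18 was at 159.8, 113 and 195 CPM, against 117, 67.7 and 98.9 in the Inmt gate, and rose by 0.55 (SE 0.12, adjusted p = 0.00576). It was the highest gate in 2-IC replicate 2 and 1-IC, and in 2-IC replicate 1 the Madcam1 gate was higher (190.4, 106 and 129.7 CPM over the libraries). Ifit1, at 18.2, 2.16 and 56.1 CPM from 13, 4 and 6 cells, had a log2 fold change of 1.82 (SE 0.54, adjusted p = 0.0396), and a single cell gave 69.4% of its UMIs in 1-IC. Without the leading cells 3 of 23 remained called, Iigp1, Ifi47 and Usp18, beside 307 of all 7371 genes tested. With gates at 2 UMIs (Cr2 at 4) the median log2 fold change was 0.10, beside 0.03 over all, with 14 of 25 genes above 0.

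Fmod-gated cells were higher for 1 of the 24 genes, Ifi27l2a, by a log2 fold change of 1.70 (SE 0.30, adjusted p = 0.000534), and lower for 0 (3.21% and 1.6% of all genes tested). It came from 29, 4 and 4 cells, and a single cell gave 44.2% and 64.7% of the UMIs in 2-IC replicate 2 and 1-IC. With the contaminant-gene barcodes kept the value turned to -0.31 (adjusted p = 0.577, edgeR). By library the log2 difference of Ifi27l2a from the other gates was 0.23, 2.89 and 1.71, so that 2-IC replicate 1 showed little rise. In that library the Inmt gate (328 CPM) and the Tnfsf11 gate (249 CPM) were above the Fmod gate (234 CPM). In the other libraries the Fmod gate was above both. The median log2 fold change of the 24 genes was 0.17, beside -0.01 over all, but its sign depended on the setting. It was -0.13 without the shared barcodes, -0.15 without 2-IC replicate 2 and -0.22 with the contaminant-gene barcodes kept.

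Inmt-gated cells were higher for 4 of the 24 genes and lower for 0 (10.4% and 6.26% of all genes tested). Irf1 was at 88.4, 77.4 and 138 CPM there and at 27.3, 65.6 and 19.6 CPM in the Cr2 gate, and it rose by a log2 fold change of 1.24 (SE 0.20, adjusted p = 5.41e-05), past the threshold in every alternative run. Irf1 was highest in the Inmt gate in all 3 libraries. A list of 8 immediate early and stress genes moved with it, at 22935 to 26677 CPM in the Inmt gate and 6938 to 11012 CPM in the Cr2 gate, and its part in the Irf1 values was not tested. Ifi27l2a rose by 1.16 (SE 0.25, adjusted p = 0.00127), Gbp2 by 0.99 (SE 0.23, adjusted p = 0.00307) and Irgm2 by 0.89 (SE 0.28, adjusted p = 0.0274) on the log2 scale. By library the log2 difference of Ifi27l2a from the other gates was 0.90, -0.04 and 0.66, so that 2-IC replicate 2 showed no rise. Its call was lost in 3 of 13 alternatives, among them the one with contaminant-gene barcodes kept. The call of Gbp2 was lost in 2 of 12 and that of Irgm2 in 6 of 12. The median over the 24 genes was 0.39, beside 0.01 over all, with 22 of 24 above 0. With gates at 2 UMIs (Cr2 at 4) it was 0.09, beside 0.01 over all, with 14 of 25 genes above 0. In the other alternatives it lay between 0.30 and 0.54. With library totals in place of TMM the split of all genes moved from 767 higher and 462 lower to 597 and 594 in this gate, while 3 of the 4 genes kept their call. Without the shared barcodes 7 of the 24 genes were higher in this gate, beside 764 of all 7375 genes tested.

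Madcam1-gated cells showed 0 of the 24 genes higher and 0 lower (2.22% and 0.881% of all genes tested). At an unadjusted p under 0.05 in edgeR there were 5 of the 24, against 1101 of 7377 genes. DESeq2 called 0 of the 24, against 198 of 7377 genes higher and 103 lower. In this gate library totals in place of TMM turned 164 genes higher and 65 lower into 224 and 49. The sums there were 1666, 551 and 1529 CPM, with the 2-IC libraries far apart.

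**Figure D3:**
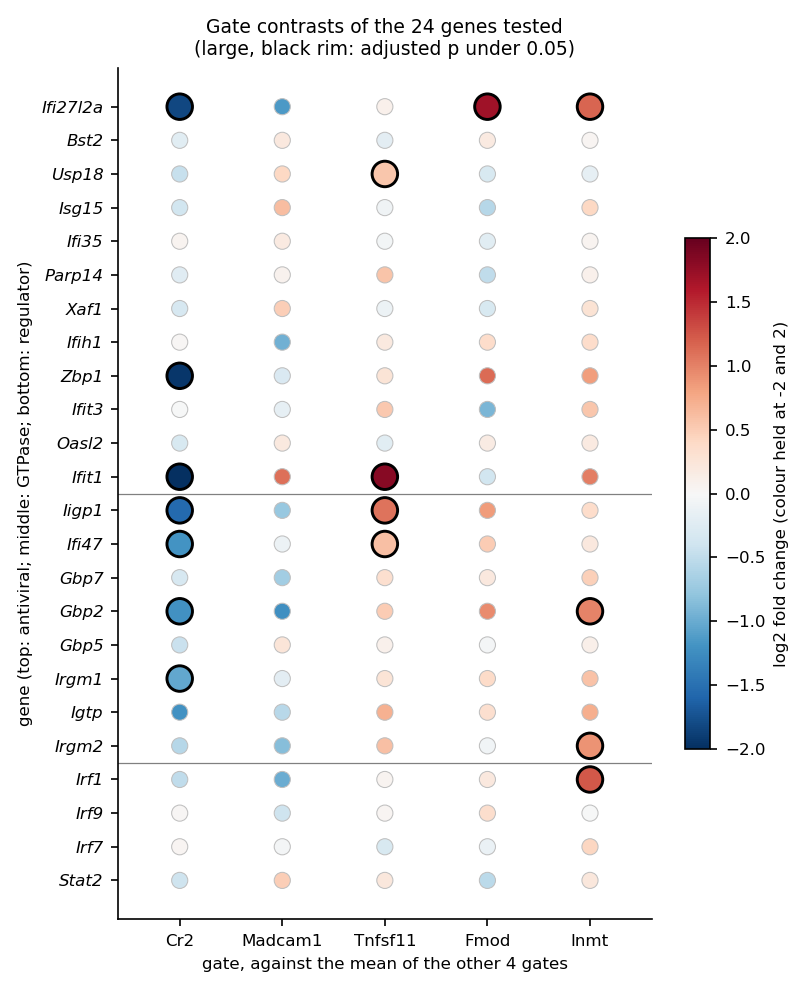
Log2 fold change (colour) of each gate against the mean of the other 4 gates for the 24 genes tested, with large black-rimmed points at an adjusted p under 0.05. The Cr2 column holds the 7 lower calls, 4 of them in the GTPase block, and the Tnfsf11, Fmod and Inmt columns hold the 9 higher calls.

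With all libraries and the block, 889 of all 7377 genes were lower in the Cr2 gate. In the Tnfsf11, Fmod and Inmt gates 308, 237 and 767 were higher. Without the library block, 1 of the 24 genes remained lower in the Cr2 gate (Ifi47), beside 463 of all 7377. In the Tnfsf11, Fmod and Inmt gates 0, 0 and 1 were higher, beside 25, 66 and 235 of all. Without the 1-IC library 3 were lower in the Cr2 gate (684 of all 7727 genes tested). In the other 3 gates 0, 0 and 2 were higher (138, 167 and 576 of all). Without 2-IC replicate 1 the counts were 2 lower (361 of all 6762) and 2, 3 and 4 higher (119, 102 and 359).

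The balance of GTPase to antiviral genes was described by the ratio of their sums. The log2 ratio of the summed GTPase to the summed antiviral level was -1.17 in 2-IC replicate 1, 0.24 in 2-IC replicate 2 and -1.26 in 1-IC. The 2-IC replicates lay on opposite sides of 0, and 1-IC was close to 2-IC replicate 1. By gate it was -1.64, -0.80 and -1.40 in Cr2-gated cells and -1.36, -1 and -1.90 in Madcam1-gated cells. It was -0.90, 0.48 and -0.84 in the Tnfsf11 gate, -1.16, 0.27 and -1.39 in the Fmod gate and -1.22, 0.16 and -1.37 in the Inmt gate. Without the shared barcodes, which took 2 cells from it, the Fmod gate of 2-IC replicate 2 turned to -0.23 and its sum of the 33 genes went from 1329.6 to 870.4 CPM. In each gate 2-IC replicate 2 had the highest ratio. The Tnfsf11 gate had the highest mean ratio (-0.42 ± 0.78, SD, n = 3 libraries) and the Madcam1 gate the lowest (-1.42 ± 0.46). Within the libraries the Tnfsf11 gate lay above the Madcam1 gate by 0.45, 1.48 and 1.06, in the same direction in all 3, and since the gates were picked by their order this is a description. Without the leading gene of each role (Ifi27l2a, Iigp1 and Irf1) the ratio of 2-IC replicate 2 was -0.31, still above the -1.08 and -1.34 of the others.

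**Figure D4:**
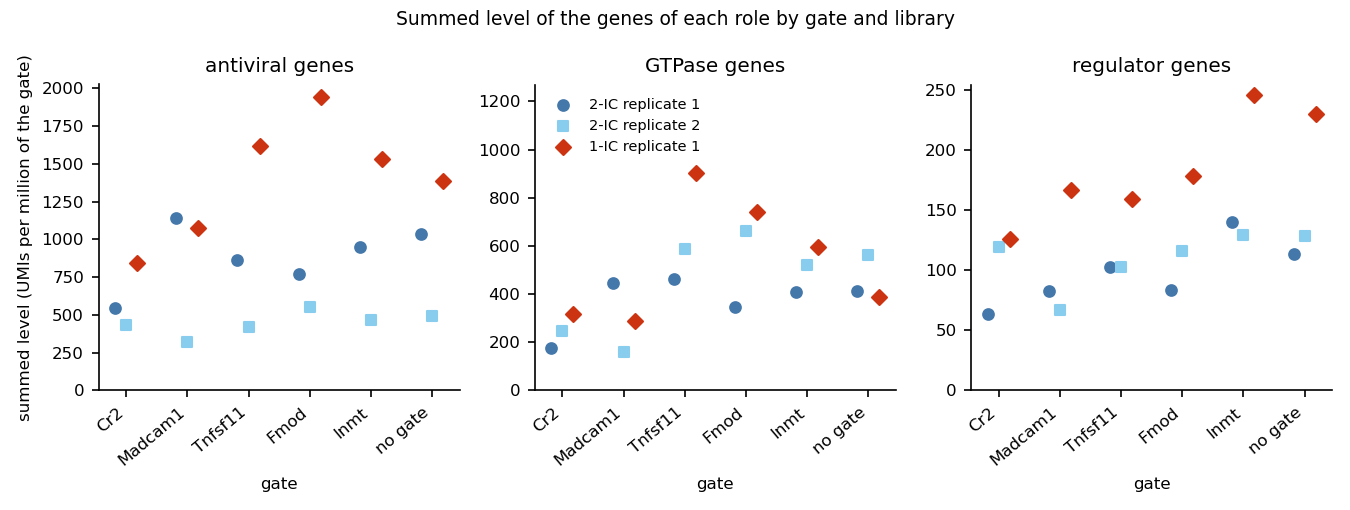
Summed level (CPM) of the antiviral, GTPase and regulator genes in the 5 gates and the ungated cells, 1 point per library. The antiviral sums of 2-IC replicate 2 are the lowest in every gate (323 to 550), while its GTPase sums lie above those of 2-IC replicate 1 in all but the Madcam1 gate.

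The genes were spread unevenly over cells. The 5% of cells with the highest share of UMIs in the 33 genes held 24.5%, 27.5% and 30.4% of the UMIs of these genes in the 3 libraries, and 5.15%, 5.58% and 5.65% of all UMIs. The median cell had 9.75, 7.78 and 10.6 UMIs of the 33 genes per 10000, the 95th percentile was 39.8, 33.1 and 75.8, and the highest cells reached 160, 87.4 and 237. For the GTPases alone the top 5% of cells held 30.0%, 44.5% and 43.4%, and for the antiviral genes 28.8%, 16.7% and 34.3%. In cells thinned to 2000 UMIs, which left 1307, 346 and 271 cells, the GTPase shares were 33.5%, 44.7% and 40.2% and the antiviral shares 29.9%, 27.3% and 34.2%. At this matched depth the antiviral share of 2-IC replicate 2 was closer to the others. The shares of the regulators, which have few UMIs, also rose with thinning, from 24.1%, 17.5% and 27.2% to 42.2%, 50% and 50%. Among thinned cells 31.4%, 54.3% and 22.9% had 0 antiviral UMIs. The thinned shares therefore cannot show that the antiviral spread was alike. A single cell of 2-IC replicate 2 held 185 of its 3028 GTPase UMIs.

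Cells at 50 or more UMIs of the 33 genes per 10000 numbered 54 of 1526 (3.54%, exact 95% interval 2.67 to 4.59), 9 of 391 (2.30%, 1.06 to 4.32) and 34 of 326 (10.4%, 7.33 to 14.3). These cells held 20.6%, 16.9% and 44.4% of the UMIs of the 33 genes. The cut marks a range on a scale and does not define a cell type, with 45, 5 and 17 cells between 40 and 60 per 10000. The paper describes a stromal cluster marked by interferon-related genes, which it proposes could be an activated subset. No clustering was run here, and whether the cells above the cut belong to that cluster was not tested. Antiviral UMIs outnumbered GTPase UMIs in 43 of the 54 such cells of 2-IC replicate 1 and in 27 of the 34 of 1-IC, but in 2 of the 9 of 2-IC replicate 2. In the Cr2 gate there were 0 of 83 and 0 of 27 such cells in the 2-IC libraries (exact upper limits 4.35% and 12.8%) and 2 of 39 in 1-IC, and in the Inmt gate there were 14 of 461, 2 of 91 and 12 of 81. The 11 such ungated cells of 1-IC had a median of 884 UMIs, against 7550 for the 12 of its Inmt gate.

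**Figure D5:**
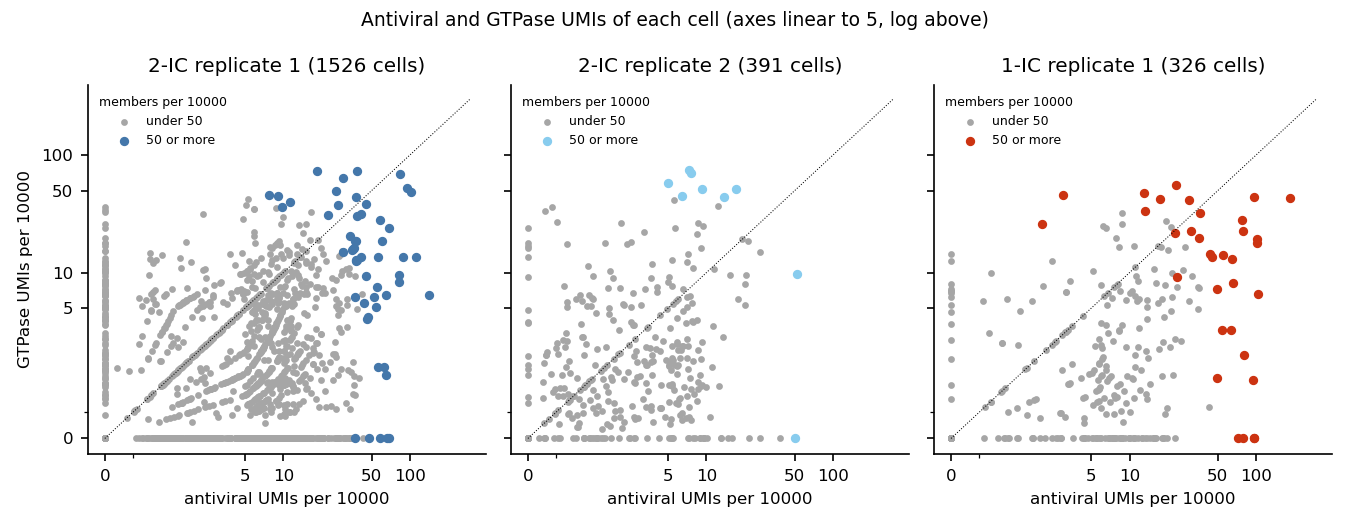
Antiviral against GTPase UMIs per 10000 UMIs of each retained cell (axes linear to 5 and log above), with cells at 50 or more UMIs of the 33 genes per 10000 in colour and the dotted line at equal levels. Most coloured cells of 2-IC replicate 1 and 1-IC lie on the side of the line with more antiviral UMIs, and 7 of the 9 of 2-IC replicate 2 on the side with more GTPase UMIs.

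Within a library, the share of each gene in a cell (log2 of counts per 10000 plus 1) was correlated with that of the sum of the other 32 genes, and the correlations were averaged over the 3 libraries. These values are descriptions, since cells of a library share its depth and preparation. All 33 mean correlations were above 0, from 0.09 for Mx1, whose protein is defective in C57BL/6 mice, to 0.34 for Iigp1, and the median over 9178 genes was 0.03. Igtp (0.33), Isg15 (0.31), Irf7 (0.27) and Bst2 (0.27) followed Iigp1. Usp18, although the third of the antiviral genes in level, was among the lowest with 0.10, and Irf1 was at 0.13. Ifi27l2a was at 0.14 and 0.34 in 2-IC replicate 1 and 1-IC, and at 0.01 in 2-IC replicate 2.

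Among the genes outside the 33, the most alike were Ly6a (0.33), Ifitm3 (0.31), Ly6e (0.29), Cxcl9 (0.28), Mndal (0.28), Cxcl10 (0.27), Ifi211 (0.27), Plac8 (0.27), Gm4951 (0.26) and Ifi203 (0.26). Cxcl9, a chemokine gene known for its induction by interferon gamma, was at 132, 214 and 277 CPM in the libraries. Of the pairs within the 33 genes, Ifit3 and Ifit3b had the highest mean correlation (0.50), followed by Iigp1 and Igtp (0.48) and by Ifit1 and Ifit3b (0.48). In the 2-IC libraries, which do not hold the 1-IC cell described above, these were 0.40 and 0.50, 0.28 and 0.54, and 0.40 and 0.34. The median over pairs of GTPase genes was 0.10, 0.32 and 0.20, over pairs of antiviral genes 0.08, 0.08 and 0.17, and over pairs of 1 of each 0.07, 0.09 and 0.15. In 2-IC replicate 2 the GTPase pairs thus stood above the cross pairs by more than in the other libraries. Its cells were also the deepest (median 14732 UMIs, against 4700.5 in 2-IC replicate 1 and 5979 in 1-IC). A single cell held 185 of its 3028 GTPase UMIs. The part of depth and of this cell in the correlations was not tested.

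Other genes of the pathway were taken as lists of receptors, signalling proteins, further GTPases, nucleic acid sensors and further induced genes. Of 5 interferon receptor genes tested by gate, Ifngr1 (0.41) and Ifngr2 (0.77, log2 fold changes), the 2 chains of the interferon gamma receptor, were higher in the Cr2 gate and 0 lower, against 13.9% and 12.1% of all genes tested, and Ifngr2 fell in the Inmt gate (-0.76). Of the signalling genes reported here, the inhibitor Socs1 (1.04) and Irf8 (0.43) were higher in the Cr2 gate, and Stat3 (-0.47) and Socs3 (-1.09) lower. So the Cr2 gate, lower for 7 of the 24 genes tested, was higher for both chains of this receptor. In the Inmt gate Socs3 (1.42) and Jak2 (0.87) were higher and Irf8 (-0.54) lower, and in the Tnfsf11 gate Jak2 (0.66) was higher. Of 3 myeloid markers tested, Cd52 was higher in the Cr2 gate and lower in the Inmt gate, as Irf8 was. Of 3 B cell markers, 1 (Cd74) was higher in the Cr2 gate and 2 (Ighm and Igkc) in the Inmt gate. Of 8 immediate early and stress genes, 6 were lower and 1 higher in the Cr2 gate, and 6 were higher in the Inmt gate. The part of these lists was not tested.

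Of 13 further induced genes tested by gate, Cxcl9 was higher in the Cr2 (0.90) and Tnfsf11 (0.95) gates and lower in the Madcam1 gate (-2.36), where Psmb8 of the immunoproteasome was also lower (-0.75). Ifitm3, which blocks virus entry, fell in the Cr2 gate (-1.54) and rose in the Tnfsf11 (0.45), Fmod (0.63) and Inmt (0.62) gates. Ifi203 fell in the Cr2 gate (-0.89) and rose in the Fmod gate (0.75), and Ifi204 (1.21), Ddx60 (1.11), Isg20 (0.99) and Trim30a (0.92) rose in the Inmt gate. Of 10 further GTPase genes only 2 had enough counts for the gate fits. Both, Tgtp2 (1.44) and Gm4951 (0.69), rose in the Tnfsf11 gate, and Tgtp2 fell in the Cr2 gate (-1.78). Of 5 sensor genes tested, Tmem173, which encodes STING, rose in the Cr2 gate (1.15) and fell in the Tnfsf11 (-0.64) and Inmt (-1.08) gates. Of all genes tested, 13.9% were higher and 12.1% lower in the Cr2 gate and 4.18% and 2.78% in the Tnfsf11 gate. The shares were 3.21% and 1.6% in the Fmod gate, 10.4% and 6.26% in the Inmt gate and 2.22% and 0.881% in the Madcam1 gate. Between 1-IC and 2-IC, 1 of 7 further GTPase genes passed (Tgtp1, 2.32), with 0 of 5 receptor, 0 of 18 further induced and 0 of 9 sensor genes, against 0.338% of all genes in each direction, all by the edgeR test at an adjusted p under 0.05.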

How the data were processed

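Raw UMI counts were deposited by the authors as 1 matrix per library, made with Cell Ranger (version 5.0.0 per the file headers) on GRCm38 with Ensembl release 89. The authors' filters were applied again: at least 200 genes, at most 10% mitochondrial UMIs and no UMI of 13 contaminant genes. No doublet caller was run. Libraries were grouped by their titles, since their short descriptions conflict.

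Retained counts were summed per library, and per library and gate (gates with at least 10 cells). Genes were tested with edgeR 4.0.16 (quasi-likelihood, TMM, its own low-count filter, Benjamini-Hochberg adjustment over all genes tested, threshold 0.05) in R 4.3.3, with the library as a block between gates because the gates of a library come from 1 suspension. The code was tested on data simulated with 1 mean per gene, no library effect and a spread set by the level of the gene. That spread was the trend fitted to these libraries. The 200 genes given a change were drawn from those at or above the median level, so recovery of genes with few UMIs was not measured. At a log2 change of 1, edgeR found 90.5% of them in the Cr2 gate and 0% between 1-IC and 2-IC. At a log2 change of 2 it found 100% and 69%. Genes not called between 1-IC and 2-IC are therefore not shown to be unchanged. DESeq2 1.42.0 and the settings in the closing section were alternatives. Genes named in full were the 3 with the highest mean level of each role and, in each comparison, the called genes with the largest fold changes (2 in a gate, 3 between 1-IC and 2-IC), and others named were chosen after their values were seen. The 33 genes, the gates and the lists were chosen with earlier results of these data known. The result for 1 signalling gene is not reported here. P-values between gates rest on how far the differences between gates vary from library to library, with a spread partly shared over genes. This variation may be technical. Those of 1-IC against 2-IC rest mostly on a spread shared over genes, since that fit has 1 residual degree of freedom. Intervals cover counting error only.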

Additional observations from a re-analysis of the deposited data

Results flagged for a closer look

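Signal of the 33 genes was also present in barcodes that the report does not use, those with a UMI of any of the 13 contaminant genes. Their summed level was 2433 CPM in 2-IC replicate 1 (1607 barcodes), 1351 CPM in 2-IC replicate 2 (365 barcodes) and 4112 CPM in 1-IC (298 barcodes). Each of these lay above the sum in the retained cells of the same library (1435, 1099 and 2222 CPM), and the order of the libraries was the same. Ifi27l2a was at 1093, 299 and 1778 CPM there and Irf7 at 62.6, 20.5 and 179 CPM, above the retained cells in each library. Usp18 was at 66.0, 56.0 and 63.3 CPM, below the retained cells in each library. No library served as an untreated control for these levels.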

How the results depend on the processing

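Every gate count of the main fit rests on 3 libraries, and those without a library rest on 2. With gates at 2 UMIs (Cr2 at 4) the Madcam1 gate had no sum of 2-IC replicate 2 and the Fmod gate none of 1-IC. These had fewer than 10 cells. The 1-IC comparison rests on 1 library against 2, so leaving out a library there gave ratios and no test. Low members are limited by depth, since 3 UMIs made 0.360, 0.529 and 1.48 CPM in the libraries. Alternatives on shared barcodes, on cells of at least 1000 UMIs and on the leading cells were chosen after seeing the data. Across them and the planned ones, 155 summary values held and 45 moved, and of the values of named genes 161 held, 69 lost their call and 2 reversed. Causes were not tested.

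The number of all genes called also changed with the setting, and is given in brackets. The 7 genes lower in the Cr2 gate became 4 with DESeq2 (781 of 7377 genes). They became 2 with cells thinned to 2000 UMIs (419 of 3068) and 2 to 7 when a library was left out (361 to 940 genes). Thinning left 9 of the 33 genes tested between gates, against 24, and 26 between 1-IC and 2-IC. With contaminant-gene barcodes kept, 9 of 28 were lower in the Cr2 gate (1630 of 9289), of which 4 were among the 7. The 4 higher in the Tnfsf11 gate became 1 with DESeq2 (141 of 7377), 2 after thinning (200 of 3068) and 2 with contaminant-gene barcodes kept (324 of 9289). They became 2 with gates at 2 UMIs and Cr2 at 4 (212 of 6408). With no filter on low counts they became 7 (612 of 21925), and without a library 0 to 4 (119 to 358 genes). The 1 higher in the Fmod gate became 0 with contaminant-gene barcodes kept (328 of 9289) and 2 with no filter (318 of 21925). Without a library it became 0 to 3 (102 to 283 genes). The 4 higher in the Inmt gate became 2 after thinning (438 of 3068) and 2 with gates at 2 UMIs (724 of 6408). They became 7 with no filter (1072 of 21925), 7 without shared barcodes (764 of 7375) and 2 to 4 without a library (359 to 782 genes). For the Madcam1 gate, where 0 were called in either direction, keeping contaminant-gene barcodes gave 3 higher and 2 lower (408 and 334 of 9289). No filter gave 1 higher and 2 lower (231 and 183 of 21925). Leaving out a library gave 0 to 1 in each direction (94 to 166 genes higher and 12 to 88 lower). The fit with no replicate block, in which the gates of a library are not paired, gave 1 lower in the Cr2 gate (463 of 7377). It gave 0, 0 and 1 higher in the Tnfsf11, Fmod and Inmt gates (25, 66 and 235). The 4 genes higher in 1-IC (46 of all 13613) became 0 with DESeq2 (0 of 13613) and 1 after thinning (6 of 8485). They became 1 with gates given equal weight (4 of 13272) and 2 without the leading cells (44 of 13606).

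The mean 2-IC sum of 1267 CPM became 1622 with contaminant-gene barcodes kept and 862 without the leading gene of each role. The 1-IC sum of 2222 CPM became 2090.4 after thinning, 3087 with contaminant-gene barcodes kept, 2031 as a mean of per-cell levels, 1623 without the 2% of cells with the highest share and 1510.2 without the leading genes. With contaminant-gene barcodes kept the mean log2 ratio of GTPase to antiviral sums moved from -1.28 to -1.83 in the Cr2 gate and from -1.42 to -2.02 in the Madcam1 gate, and the share of UMIs in the top 5% of 1-IC cells from 30.4% to 27.6%. The same setting reversed Ifi27l2a in the Cr2 gate (0.27) and in the Fmod gate (-0.31).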
